A study of Mus musculus with 85 samples.

Results

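Hlf was above background in 8 of the 28 single cells sorted from hematopoietic clusters at embryonic day 10.5, and the values of all other genes in these 8 cells were compared with those in the remaining 20. A cell was counted as having Hlf when either of the 2 Hlf probe sets on its array exceeded a log2 value of 5, and as lacking Hlf when neither did. The cells were thus chosen by their measured Hlf values, which are given as a description and not as a result.

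The series holds 85 arrays, each hybridised with the amplified RNA of 1 mouse cell. The E10.5 cluster cells were wild-type cells of the caudal embryo, sorted as c-Kit+CD31+CD45+SSEA1-. Values in the other populations are given for reference. They were 16 wild-type cluster cells with the same surface markers from the aorta-gonad-mesonephros region at E12.5, 27 arrays of wild-type E14.5 fetal liver hematopoietic stem cells (HSC; CD150+, CD48- and Lin- cells that were c-Kit+, Mac-1+ and Sca-1+), 7 hemogenic endothelial cells (HEC; eR1-GFP+CD31+Ter119-CD45-CD41-) and 7 endothelial cells (EC; the same markers but eR1-GFP-). HEC and EC came from E10.5 embryos carrying the eR1-GFP reporter, in which an enhancer of Runx1 drives the fluorescent protein. The labels name no animal, litter or pool for any cell, so the cells with Hlf count as 1 sample and those without as 1 sample. No test was therefore possible, and differences are given as mean log2 values of cells with Hlf minus cells without, with the spread over cells. A difference of at least 2 log2 units is called higher or lower.

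Hlf encodes hepatic leukemia factor, a basic leucine zipper transcription factor of the PAR family, whose other members are Dbp and Tef. Hlf is known as a gene that marks hematopoietic stem cells and is lost as they differentiate. The clusters are groups of rounded blood cells that bud from the endothelium of the embryonic aorta and neighbouring arteries, and they hold precursors of stem cells alongside committed progenitors.

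The higher of the 2 Hlf values ran from 7.45 to 10.86 in the cells with Hlf, with a median of 8.25, and from 2.25 to 4.99 in the cells without. Cell 24 at 7.45 was the lowest inside the threshold, and cell 1 at 4.99 was the highest outside it. Of the 8 cells with Hlf, 4 exceeded 5 on both probe sets, cells 11, 17 and 24 did so only on the probe set with the lower mean, and cell 25 only on the other. Every other cell without Hlf lay near the floor of the values on both probe sets. Elsewhere Hlf exceeded 5 in 22 of 26 fetal liver HSC, in 2 of the 16 cluster cells of E12.5, in 1 of 7 HEC and in 0 of 7 EC.

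**Figure D1:**
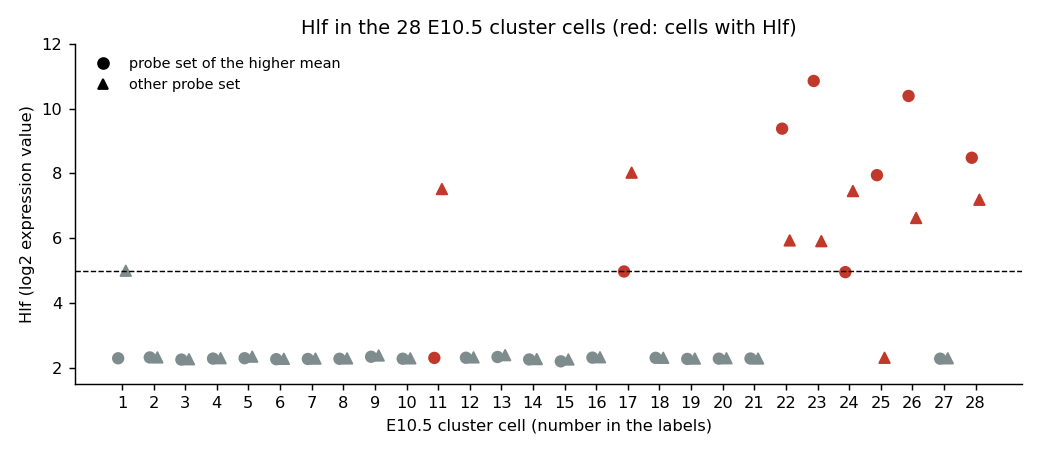
Log2 expression value of Hlf (vertical axis) in each of the 28 E10.5 cluster cells (horizontal axis, numbered as in the labels), with circles for the probe set of the higher mean and triangles for the other. Red marks the 8 cells with Hlf, the dashed line is the threshold of 5, and cell 1 sits just under it at 4.99.

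Several other measures differed between the sides. Of the 8 cells with Hlf, 6 were numbered 22 to 28 in the labels, against 1 of the 20 without, and the labels do not say what the numbers mark. A Y-linked gene exceeded 5 in 1 of 8 cells with Hlf and in 11 of 20 without, and Xist in 6 of 8 and 8 of 20. Between 8352 and 10316 probe sets exceeded 5 in cells with Hlf (median 9474.5), against 8244 to 11487 in cells without (median 10317). The signal of the probe sets above 5 went the other way, with a median over cells of 10.04 with Hlf and 9.51 without. Both control probe sets examined held the value shared across arrays in 8 of 8 cells with Hlf and 14 of 20 without. The part of cell numbers, sex, detected probe sets, signal and control probe sets in the results that follow was not tested. Values within subsets of cells by number and by Y-linked genes are given near the end. None of the sorting-gate genes measured was called. Kit was above 5 in 8 of 8 and 19 of 20 cells (difference 1.09), Ptprc (CD45) in 8 of 8 and 18 of 20 (0.64) and Pecam1 (CD31) in 6 of 8 and 14 of 20 (-0.06). The median correlation between pairs of cells, over all measured genes, was 0.564 among the cells with Hlf, 0.638 among those without and 0.578 between the sides.

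A gene was measured when it exceeded 5 in at least 3 of the 28 cells, which left 9186 genes. Of these, 332 (3.61%) were higher in cells with Hlf and 1075 (11.7%) were lower. Over the 9186 genes, 2941 differences were positive and 6245 negative. Counts in the gene lists below are to be read against these shares. The median difference over all measured genes was -0.48, so the mean differences of the measured genes centred below 0. With medians over cells in place of means it was -0.07, and without the filter, over 18192 genes, it was 0.013. After quantile normalization the median was -0.13 and the split was 460 higher and 640 lower, and with differences taken relative to the median it was 553 higher and 614 lower. The filter itself bears on the calls, because a gene at 5 or less in all 20 cells without Hlf was measured only if it was high with Hlf, and the reverse holds for the other side. Of the 332 genes higher, 28 were above 5 in 0 of 20 cells without Hlf, and of the 1075 lower, 85 were above 5 in 0 of 8 cells with Hlf. For no gene (0%) did the values of the 2 sides not overlap, in either direction. The share of cells above 5 was higher by at least 50 percentage points for 61 genes (0.664%) and lower by as much for 183 (1.99%).

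Among transcription factors linked to stem cells, 4 of the 13 measured were higher (3.61% of all genes were) and 0 lower (11.7% of all genes were). Of the 13 differences 12 were positive, with a median of 1.28. The list had 27 genes, of which the others did not pass the filter or had no probe set of their own. Mycn, a MYC-family factor of proliferating stem and progenitor cells, lay between 2.91 and 12.74 with Hlf (median 10.01) and between 2.42 and 13.96 without (median 2.87). It exceeded 5 in 6 of 8 and 4 of 20 cells, and the mean difference was 4.10. The ranges of Mycn overlapped almost completely, and the sides differed in how many cells were high.

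Mecom, the Evi1 locus, whose product is needed for stem cell maintenance, exceeded 5 in 3 of 8 cells with Hlf (37.5%, exact 95% interval 8.52 to 75.5) and in 0 of 20 without (upper bound 16.8%). Its values were 8.44 in cell 17, 11.46 in cell 24 and 11.85 in cell 26, and at most 2.34 in every other cell. The difference for Mecom was 3.13, and since it passed the filter only through cells with Hlf its call adds no support to any list's count. Such exact Clopper-Pearson intervals cover counting error over cells only. Hoxa9, a homeobox factor that promotes stem cell expansion, was above 5 in 3 of 8 and 1 of 20 cells, with a difference of 3.33. The 3 cells were 23, 24 and 26, so 2 of them also held Mecom. Ndn, an imprinted gene for the growth suppressor necdin, differed by 2.42, but by 1.88 without cell 23. Meis1 (1.34), Erg (1.33), Hmga2 (1.28) and Etv6 (1.06) were positive without reaching the size, and Bmi1 (-0.17) was the negative member.

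Surface and signalling genes associated with stem cells had the largest median of the lists with at least 5 measured members, at 2.03. Of 28 measured members of 42, 15 were higher (3.61% of all genes were), 1 lower (11.7% of all genes were) and 24 positive. Tek, the angiopoietin receptor Tie2, ran from 6.83 to 12.16 in cells with Hlf (median 9.56) and from 2.27 to 10.48 in cells without (median 2.31). All 8 cells with Hlf (100%, interval 63.1 to 100) and 8 of 20 without (40%, interval 19.1 to 63.9) exceeded 5, and the difference was 4.34. So the cells with Hlf were all high for Tek, while those without fell into high and low cells.

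Fgd5, a guanine exchange factor of Cdc42 expressed in stem cells and endothelium, was above 5 in 7 of 8 and 7 of 20 cells (difference 4.76). Esam, an adhesion molecule of endothelium and stem cells, was also above 5 in 7 of 8 and 7 of 20 (3.73). Ifitm3, an interferon-induced membrane protein, exceeded 5 in 6 of 8 and 6 of 20 cells (4.77). For Mmrn1, a multimerin stored in platelets and endothelium, the counts were 8 of 8 and 11 of 20 (4.03). Gimap1, a GTPase of the immunity-associated family, was above 5 in 8 of 8 and 10 of 20 cells (3.33). The other members called higher were Tgm2 (3.84), Gng11 (3.43), Cdkn1c (3.41), Vwf (3.04), Tie1 (2.99), Jam3 (2.61), Ifitm1 (2.46), Cd34 (2.05) and Flt3 (2.01). Vwf passed the filter only through cells with Hlf, so its call adds no support.

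Several classical stem cell markers did not reach the size or only just did. Cd34 exceeded 5 in 8 of 8 and 17 of 20 cells, and its difference of 2.05 was 1.60 without cell 3. Flt3, a cytokine receptor of multipotent progenitors, was above 5 in 4 of 8 and 3 of 20 cells, and its difference dropped to 1.24 without cell 26. Procr, the endothelial protein C receptor used to sort stem cells, exceeded 5 in 2 of 8 and 1 of 20 cells (1.69). Eng (1.47) and Angpt1 (1.16) were positive, while Cd9 (0.25), Adgrg1 (0.05) and Cd81 (-0.13), above 5 in all 28 cells, were nearest to 0. The member called lower was Ctnnal1 (-2.04), above 5 in 0 of 8 and 5 of 20 cells. Ctnnal1 passed the filter only through cells without Hlf, so its call adds no support.

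Pan-endothelial genes also lay higher, with 10 of 21 measured members higher (3.61% of all genes were) and 0 lower (11.7% of all genes were). Of the 21, 19 were positive, with a median of 1.72. Of the 10, Ptprb, Col4a1, Col4a2 and Vwf were above 5 in 0 of 20 cells without Hlf, so they passed the filter only through cells with Hlf, and their calls add no support. The list shares Tek, Esam, Vwf, Tie1 and Eng with the surface list and Erg with the transcription factors. Calcrl, the receptor that binds adrenomedullin or calcitonin gene-related peptide according to its RAMP partner, ran from 2.99 to 12.46 with Hlf (median 11.56) and from 2.76 to 11.44 without (median 3.11). It was above 5 in 7 of 8 cells with Hlf, all but cell 11, and in 5 of 20 without, and the difference of 5.80 was 1.94 as the mean of its probe sets. Of the partners, Ramp2 exceeded 5 in 4 of 8 and 6 of 20 cells (1.32), and Ramp1 is described among the genes that were lower.

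Cdh5, VE-cadherin of endothelial junctions, was above 5 in 4 of 8 cells with Hlf and 1 of 20 without (3.11). The 4 values were 6.52, 8.25, 9.82 and 11.85, the last in cell 17. Ptprb, a receptor phosphatase of endothelium, was above 5 in 5 of 8 and 0 of 20 cells (3.04). The basement membrane collagen genes Col4a1 (2.89; 4 of 8 and 0 of 20) and Col4a2 (2.97; 3 of 8 and 0 of 20) had a like pattern, as had Vwf (3.04; 3 of 8 and 0 of 20). Members shared with the sorted cluster identity did not differ by the size, with Egfl7 (1.01) above 5 in every cell and Pecam1 at -0.06. Kdr was above 5 in 2 of 8 and 2 of 20 cells (0.80), and Cldn5, a tight-junction gene of endothelium, in 0 of 8 and 0 of 20.

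The list's mean level was 4.87 to 10.37 per cell with Hlf (median 6.76) and 3.92 to 6.85 without (median 4.90). Cell 17 was the highest at 10.37, and 3 of the cells with Hlf exceeded every cell without. Over the pan-hematopoietic list cell 17 had a mean of 9.03, below the median of 9.35 in cells with Hlf. The cells without Hlf ran from 8.89 to 12.77 on that list, with a median of 10.56. Without cell 17, or any other single cell, the endothelial median stayed between 1.53 and 2.20. Whether endothelial RNA carried over from the sort had a part in this was not tested.

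Among arterial genes, 2 of 7 measured members were higher (3.61% of all genes were). All 7 differences were positive and the median was 0.88, or 0.43 without cell 17. Vegfc, a ligand of the VEGF receptors, ran from 2.34 to 11.96 with Hlf (median 9.51) and from 2.26 to 13.62 without (median 2.32), with a difference of 4.07. The other member called higher was Mecom. Notch1 (0.86), Gja4 (0.92) and Jag2 (0.06) did not reach the size. Of the Notch target list only Hes1 (0.66) and Notch3 (-0.53) were measured.

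Imprinted growth genes included the largest difference of the named genes. Igf2, the fetal growth factor, lay between 3.59 and 14.05 in cells with Hlf (median 12.68) and between 2.31 and 14.56 in cells without (median 3.48). It exceeded 5 in 7 of 8 (87.5%, interval 47.3 to 99.7) and 4 of 20 cells (20%, interval 5.73 to 43.7), and the difference was 6.78. The exception among the cells with Hlf was cell 11, and the 4 high cells without Hlf were cell 2 at 14.56, above all others, cell 4 at 11.71, cell 12 at 11.50 and cell 10 at 10.07. As the mean of its probe sets the difference for Igf2 was 3.40.

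Plagl1, an imprinted zinc finger factor of a growth-control network, was above 5 in 6 of 8 and 1 of 20 cells (difference 6.71, or 2.69 as the mean of its probe sets). The values in cells without Hlf were at most 2.33 except in cell 7, which reached 10.44. Cdkn1c, an imprinted inhibitor of cyclin-dependent kinases, exceeded 5 in 5 of 8 and 2 of 20 cells (3.41). Cdkn1c is also counted in the surface list and among the kinase inhibitors, and Ndn, also higher, among the stem cell factors. Dlk1 (1.35; 3 of 8 and 0 of 20), Peg3 (1.45), Sgce (1.88) and Grb10 (1.23) were positive without reaching the size. Dlk1 passed the filter only through cells with Hlf, so its sign adds no support to the count of positive members. Together 4 of 12 measured imprinted genes were higher (3.61% of all genes were), 0 lower (11.7% of all genes were) and 11 positive, with a median of 1.40.

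**Figure D2:**
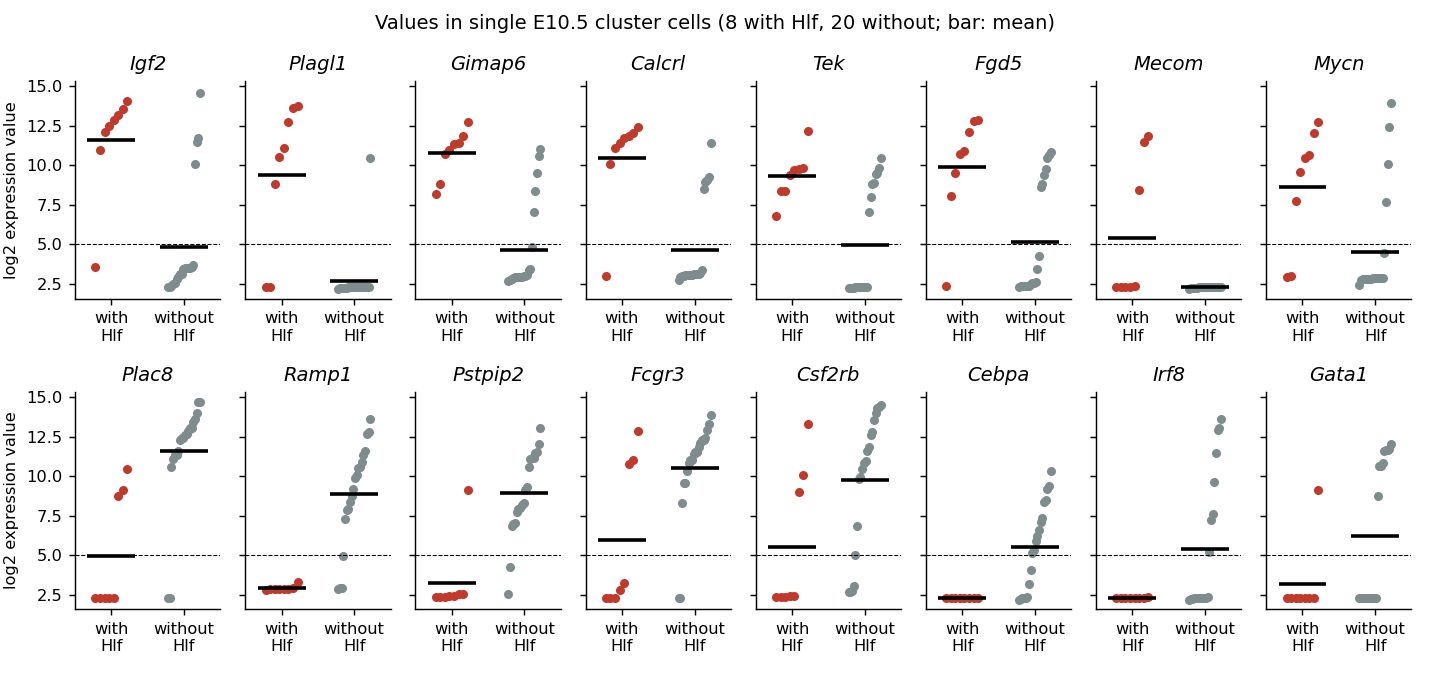
Log2 expression values (vertical axis) of 16 genes in single E10.5 cluster cells, with the 8 cells with Hlf in red, the 20 without in grey, black bars for the means and a dashed line at the background threshold of 5. Values fall into a high and a floor group for most genes, and the sides differ in how many cells are high, as for Tek (8 of 8 and 8 of 20) and Ramp1 (0 of 8 and 16 of 20). Ramp1 passed the filter only through cells without Hlf.

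The 10 largest positive differences among genes above 5 in at least 50% of the cells with Hlf were those of Igf2, Plagl1, Cd24a (6.28), Fn1 (6.28), Gimap6 (6.11), Ldb2 (5.95), Calcrl, Eid2 (5.38), Gimap8 (5.05) and Tspan6 (4.96). Gimap6, like Gimap1 a GTPase of the immunity-associated family, lay between 8.18 and 12.76 in all 8 cells with Hlf (median 11.18) and exceeded 5 in 5 of 20 cells without (median 3.01). Fn1, the matrix protein fibronectin, was above 5 in 6 of 8 and 2 of 20 cells, and Ldb2, a LIM-domain cofactor, in 6 of 8 and 1 of 20. Cd24a, a small anchored surface protein, exceeded 5 in 6 of 8 and 4 of 20 cells. Eid2, an inhibitor of differentiation that binds EP300, was above 5 in 8 of 8 and 7 of 20 cells.

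The largest differences in the share of cells above 5 were those of Col18a1, the precursor of endostatin, and Myct1, each at 7 of 8 and 2 of 20 cells or 77.5 percentage points. Gimap6 followed at 75.0 points, and Plagl1 and Ldb2 at 70.0 points. Myct1 depended on the probe set, since the mean of its probe sets differed by 1.43 against 4.59 for the probe set used.

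The 10 largest negative differences among genes above 5 in at least 50% of the cells without Hlf were led by Plac8, a small cysteine-rich protein of blood cells. Plac8 lay between 2.27 and 10.43 in cells with Hlf (median 2.30) and between 2.28 and 14.71 in cells without (median 12.50). It exceeded 5 in 3 of 8 and 18 of 20 cells, and the difference was -6.65. Even the 3 cells with Hlf above 5 lay below the median of the others.

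Ramp1, the partner with which Calcrl forms the receptor for calcitonin gene-related peptide, was at 2.82 to 3.30 in all 8 cells with Hlf and at 2.86 to 13.62 in those without (median 9.56). It was above 5 in 0 of 8 (upper bound 36.9%) and 16 of 20 cells (80%, interval 56.3 to 94.3), which was the largest difference in share among all measured genes, and the mean difference was -5.92. Ramp1 passed the filter only through cells without Hlf, so the direction of its difference adds no support. Another Ramp1 probe set differed by 0.29, and the mean of the probe sets by -2.06, so the value rests on 1 probe set.

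The remaining genes of the 10 were Oaf (-5.81), Ankrd44 (-5.65), Pstpip2 (-5.65), Emilin2 (-5.44), Perp (-5.26), Itgal (-5.25), Mt1 (-5.22) and Pradc1 (-5.13). Pstpip2, a membrane-bending protein of myeloid cells, was above 5 in 1 of 8 and 18 of 20 cells, the 1 cell being cell 11. Itgal, the alpha chain of the leukocyte integrin LFA-1, exceeded 5 in 1 of 8 and 17 of 20 cells. Mt1, a metal-binding metallothionein, and Perp, a p53 target of cell junctions, were each above 5 in 3 of 8 and 17 of 20 cells. By share, the largest after Ramp1 were Pstpip2 and the centromere gene Cenps at -77.5 percentage points and Kbtbd4 and R3hdm4 at -75.0 points.

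Myeloid granule and receptor genes lay lower. Of 20 measured members of 29, 7 were lower (11.7% of all genes were) and 1 higher (3.61% of all genes were). Of the 20, 15 were negative, against 6245 of 9186 over all genes. The median was -1.17, against -0.48 for all genes. Cebpa, Irf8 and Csf2rb2, described below, were above 5 in 0 of 8 cells with Hlf. These 3 of the 7 passed the filter only through cells without Hlf, so their calls add no support. The median was -0.76 without cell 27 and -0.69 relative to the median of all genes. Fcgr3, an Fc receptor of myeloid cells, lay between 2.27 and 12.86 with Hlf (median 3.02) and between 2.28 and 13.87 without (median 11.45), above 5 in 3 of 8 and 18 of 20 cells. Its difference was -4.59.

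Cebpa, the transcription factor that directs granulocyte and monocyte fate, was at the floor (2.27 to 2.32) in all 8 cells with Hlf and above 5 in 12 of 20 without (60%, interval 36.1 to 80.9). The difference for Cebpa was -3.22. Irf8, a factor of monocyte and dendritic cell fate, was likewise above 5 in 0 of 8 and 8 of 20 cells (-3.10). Csf2rb, the shared beta chain of the receptors for IL-3, IL-5 and GM-CSF, exceeded 5 in 3 of 8 and 16 of 20 (-4.20), and Csf2rb2, its IL-3-specific relative, in 0 of 8 and 7 of 20 (-2.64). Both of these chains are near-identical copies, so their probes may share signal. The signalling adaptor Tyrobp (-2.73) and the granule protease gene Prtn3 (-2.12) were also lower, though above 5 in 7 of 8 and 8 of 8 cells with Hlf.

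Other myeloid members did not reach the size. Mpo, the granule peroxidase, was above 5 in 8 of 8 and 19 of 20 cells, with medians of 10.79 and 13.42 and a difference of -1.87. The differences of Csf3r (-0.57), Csf2ra (0.45) and Elane (-0.04) were nearer to 0. The member called higher was Gfi1 (2.29), a repressor with roles in both stem cells and granulocytes. Gfi1 was above 5 in cells 17 and 28 of the cells with Hlf and in 1 cell without, and without cell 28 the difference was 0.95. The list's mean level lay below the median of the cells without Hlf in 8 of 8 cells with Hlf, between 4.81 and 6.97 against 5.14 to 11.24. That mean includes Cebpa, Irf8 and Csf2rb2. The count was also 8 of 8 for the mast-cell and basophil list and for the ribosomal protein list, so it does not set the myeloid list apart.

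The erythroid list was near the background of all genes, with 1 of 10 measured members lower (11.7% of all genes were), 0 higher and a median of -0.95, or -0.46 relative to the median of all genes. The lower member was Gata1, the main erythroid and megakaryocytic factor, above 5 in 1 of 8 cells with Hlf and 9 of 20 without (-3.08). Klf1 (-1.82; 1 of 8 and 6 of 20) and Rhag (-1.50; 0 of 8 and 5 of 20) did not reach the size. Embryonic globin Hbb-y was above 5 in 2 of 8 and 2 of 20 cells (1.36). Of the 6 measured mast-cell and basophil genes, 2 were lower (11.7% of all genes were), namely the protease gene Cpa3 (-3.12; 1 of 8 and 10 of 20) and Hdc for histamine synthesis (-3.15; 1 of 8 and 11 of 20).

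Megakaryocyte and platelet genes were divided, with 4 of 18 measured higher (3.61% of all genes were) and 1 lower (11.7% of all genes were). The median was -0.12, or 0.35 after quantile normalization. The higher members were Vwf, the thrombin receptor gene F2r (2.57; 8 of 8 and 13 of 20), Pf4 (2.42; 4 of 8 and 3 of 20) and Ppbp (2.41; 3 of 8 and 0 of 20), and the lower was Gata1. Vwf and Ppbp passed the filter only through cells with Hlf. Without cell 23 the difference for Pf4 was 1.87, and without cell 25 that for Ppbp was 1.71. Integrin Itga2b, or CD41, was above 5 in 5 of 8 and 16 of 20 cells (-1.68).

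Of the lymphoid list 7 of 26 genes were measured, with 1 higher (Flt3), 1 lower (Cd79b, -3.21; 3 of 8 and 17 of 20) and a median of 0.86. The median was 0.28 without cell 25 and -0.52 in cells numbered 1 to 21, so its sign depended on the cells used. Il7r, the interleukin-7 receptor, exceeded 5 in 2 of 8 and 1 of 20 cells (1.39), and Satb1 in 7 of 8 and 13 of 20 (1.78). Among 10 measured macrophage genes 1 was higher (Pf4) and 0 lower, with a median of -0.82. That median was -0.45 without cell 20. The list's differences went both ways, with 4 of the 10 positive, among them Cd68 (0.47), above 5 in 3 of 8 and 4 of 20 cells. Adgre1 and Cd14 were each above 5 in 0 of 8 and 3 of 20 cells. They passed the filter only through cells without Hlf, so their signs add no support.

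The factors that build the blood lineage as a whole differed less. Of 23 measured blood transcription factors 2 were higher (3.61% of all genes were), 0 lower and 14 negative (6245 of 9186 over all genes). The median was -0.19, or 0.18 after quantile normalization. Those higher were Gfi1 and Bcl11a, a zinc finger repressor (3.06; 6 of 8 and 12 of 20). Runx1, the factor required for blood cells to leave the endothelium, lay between 3.15 and 9.48 with Hlf and between 3.05 and 10.18 without, above 5 in 5 of 8 and 15 of 20 cells (-0.41). Gata2 (1.74), Lmo2 (1.21), Tal1 (0.01), Myb (-0.10), Spi1 (-0.41) and Gfi1b (-0.80) did not reach the size.

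Of the 24 genes shared by all leukocytes 7 were lower (11.7% of all genes were) and 0 higher, with a median of -1.03. Relative to the median of all genes 2 were lower and 1 higher (median -0.55), after quantile normalization 4 were lower, and in cells numbered 1 to 21 the median was -0.47 with 4 lower and 1 higher. Cd52, a small leukocyte surface antigen, was above 5 in 4 of 8 and 18 of 20 cells (-4.31), and the tetraspanin Cd53 in 3 of 8 and 16 of 20 (-4.06). Cyba, Itgb2, Fermt3, Vav1 and Hcls1 were lower by between -2.48 and -2.02. For Fermt3 the difference was -0.93 without cell 17. Ptprc (0.64), Itga4 (1.17), Was (0.75) and Lcp1 (0.39) were positive.

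**Figure D3:**
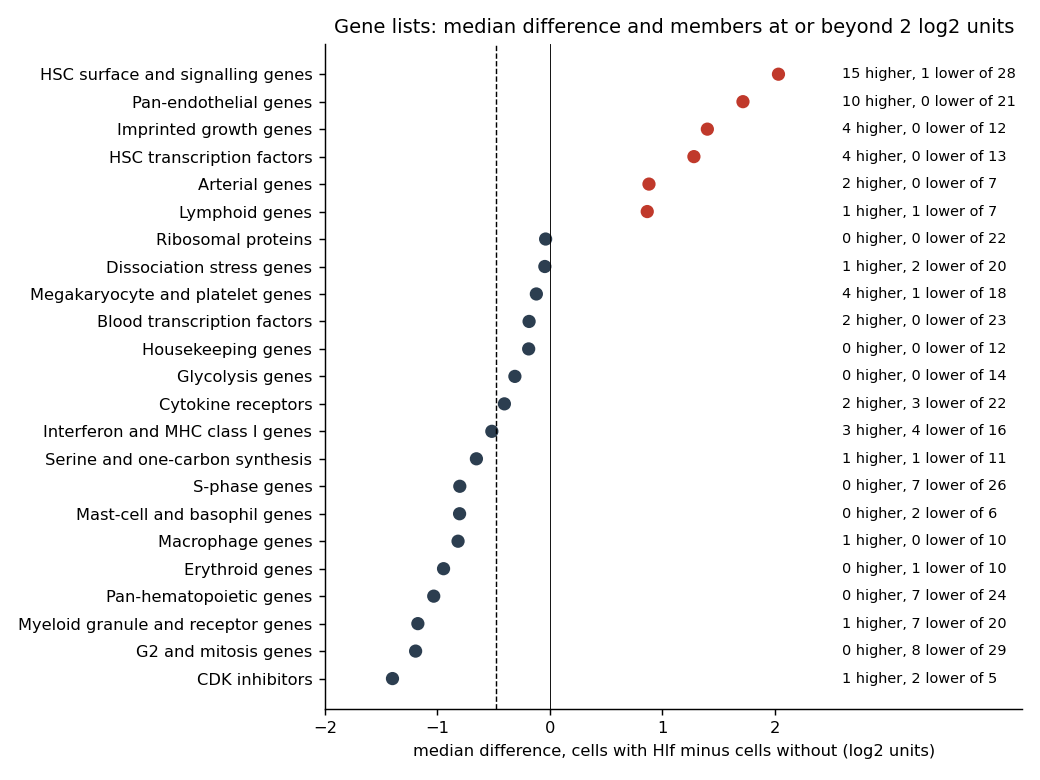
Median difference in log2 units (horizontal axis, cells with Hlf minus cells without) over the measured members of each gene list with at least 5 of them, with a dashed line at the median of all genes (-0.48). The text beside each point counts members at or beyond 2 log2 units, and the stem cell surface list (15 of 28 higher) and the pan-endothelial list (10 of 21 higher) lie farthest to the right.

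Among genes of DNA replication and mitosis, 7 of 26 measured S-phase genes were lower and 0 higher (median -0.80), and 8 of 29 G2 and mitosis genes were lower and 0 higher (median -1.19), against 11.7% lower and a median of -0.48 over all genes. Nearly every member was negative, 24 of 26 and 28 of 29, against 6245 of 9186 over all genes. The medians depended on the setting: relative to the median of all genes they were -0.32 and -0.71, each list with fewer called lower (5 and 6). For the G2 and mitosis list the median was -0.67 after quantile normalization, -0.77 without cell 28 and -0.34, with 2 of 29 lower, in cells numbered 1 to 21. Rrm2, the small subunit of ribonucleotide reductase, was above 5 in 6 of 8 cells with Hlf and in all 20 without, with medians of 11.36 and 13.47 and a difference of -3.45. Aurkb, a mitotic kinase, was also above 5 in 6 of 8 and 20 of 20 cells (-3.63), and Chaf1b, a chromatin assembly subunit, in 1 of 8 and 14 of 20 (-2.98). Plk1 (-2.66), Hmmr (-2.81) and Nuf2 (-3.12) were lower as well. Kif2c (-3.87) and Top2a (-2.32) had other probe sets that differed by 0.25 and 0.22.

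The members nearest to 0 included Pcna (-0.27), Mcm3 (-0.07), Mcm4 (0.22), Cdk1 (-0.27), Bub1 (-0.09) and Cdc20 (-0.07), all above 5 in all 28 cells. The mean over the G2 and mitosis list ran from 5.35 to 11.17 in cells with Hlf and from 6.76 to 12.64 in cells without, and 6 of 8 cells with Hlf lay below the median of the others. The 2 that did not were cells 17 and 24, at 11.17 and 11.05. Of 5 measured inhibitors of cyclin-dependent kinases, Cdkn1c was higher, whereas Cdkn1b, for p27 (-2.71; 0 of 8 and 10 of 20), and Cdkn2d (-2.64; 4 of 8 and 15 of 20) were lower. Over all genes 3.61% were higher and 11.7% lower. Cdkn1b passed the filter only through cells without Hlf, so its call adds no support.

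The 22 measured cytokine receptors as a list lay near the background, with 2 higher (3.61% of all genes), 3 lower (11.7% of all genes) and a median of -0.41 against -0.48 for all genes, which was 0.05 after quantile normalization. Il6st, the shared gp130 subunit of the IL-6 family, was higher (2.65; 4 of 8 and 5 of 20), as was Flt3, and Il6st stood at 1.90 without cell 25. The lower members were Csf2rb, Csf2rb2 and Ifnar2, a chain of the type I interferon receptor (-3.59; 3 of 8 and 17 of 20). Of these, Csf2rb2 passed the filter only through cells without Hlf, so its call adds no support. Kit (1.09), Tgfbr1 (0.95) and Tgfbr2 (1.07) did not reach the size.

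Interferon and MHC class I genes went both ways, with 3 of 16 measured higher (Ifitm3, Ifitm1 and Ifitm2) and 4 lower (Ly6e, -4.32; Tapbp, -3.78; Bst2, -2.44; Psmb8, -2.24). Over all genes 3.61% were higher and 11.7% lower. H2-K1, H2-D1 and B2m, which build the class I molecule, differed by between -0.14 and -0.08. Of the dissociation stress list 1 of 20 genes was higher (Hspa1a, 2.35) and 2 lower (Fos, -3.34; Fosb, -2.23), with a median of -0.05. Of the 11 serine and one-carbon genes Gldc was higher (2.38; 5 of 8 and 2 of 20) and Mthfd2 lower (-2.47). None of 14 glycolysis, 22 ribosomal protein or 12 housekeeping genes was called, with medians of -0.31, -0.04 and -0.19.

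No measured relative of Hlf was called higher in the cells with Hlf. Tef was at the floor, 2.28 to 2.37, in all 8 cells with Hlf and above 5 in 11 of 20 without (-2.40). Dbp was above 5 in 0 of 8 and 3 of 20 cells (-0.65), and Nfil3, a repressor that binds the same DNA element, in 1 of 8 and 6 of 20 (-1.06). Tef and Dbp passed the filter only through cells without Hlf, so their differences could only be negative and add no support.

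Lists for cells that the gate should not contain were hardly detected. No venous and lymphatic gene and no hepatocyte gene was measured, 2 of 16 mesenchymal and mural genes were (Twist1 and Pdgfrb) and 1 of 9 neural genes was (Nes), and none of them was called. Of the epithelial list Krt18 was above 5 in 3 of 8 and 14 of 20 cells (-1.67) and Krt8 in 1 of 8 and 3 of 20 (-0.44). Germ-cell genes had 4 of 14 measured, of which Ifitm1 and Ifitm3 were higher, and Kit is shared with blood cells.

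The gene lists also ordered the cells within each side. The mean level over the stem cell surface list was 4.87 to 9.41 in cells with Hlf (median 7.48) and 4.16 to 7.18 in cells without (median 5.10), and 6 of 8 cells with Hlf exceeded every cell without. Of the other 2, cell 25 stood at 6.11 and cell 11 at 4.87. Cell 11 lacked Igf2, Plagl1, Calcrl and Mecom and was the only cell with Hlf to hold a Y-linked gene above 5. Among the cells without Hlf, cells 4 and 6 (7.18 each) and cell 10 (7.07) came nearest, so a high level of this list also occurred where Hlf was not detected. An array value under 5 in a single cell does not show that the transcript was absent.

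**Figure D4:**
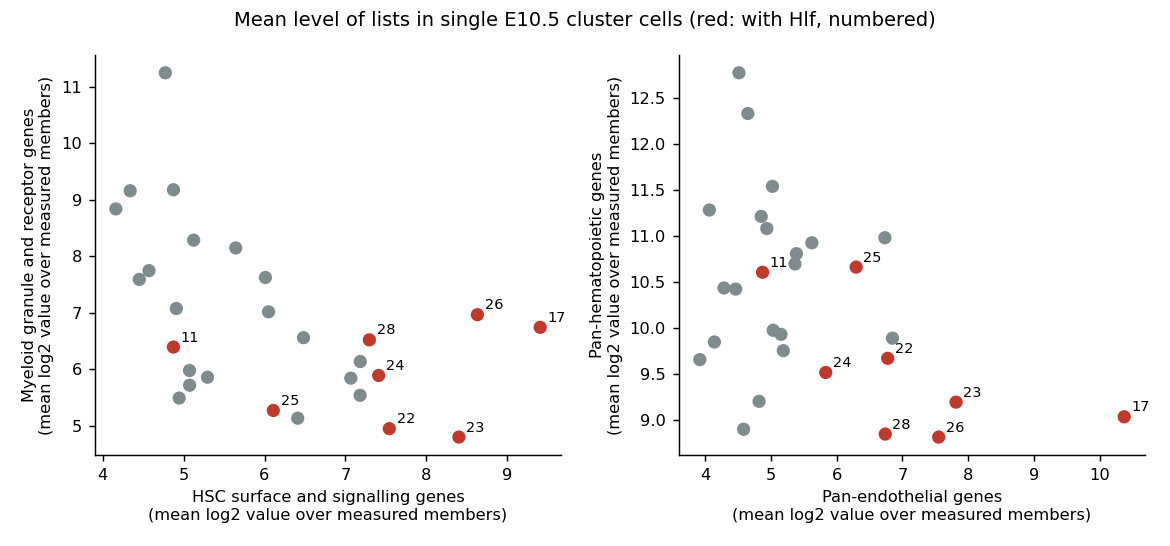
Mean log2 value over the measured members of 2 pairs of gene lists in each E10.5 cluster cell, with cells with Hlf in red and numbered and cells without in grey. Cell 17 is farthest right in both panels (9.41 for the stem cell surface list and 10.37 for the endothelial list), and cell 11 lies among the cells without Hlf.

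Set beside the other populations, the cells with and without Hlf lay toward different sides for many of these genes. Mean Igf2 was 11.60 ± 3.37 (SD, n = 8) with Hlf and 4.83 ± 3.76 (n = 20) without, against 12.01 in EC, 14.78 in HEC, 9.91 in fetal liver HSC and 5.31 in E12.5 cluster cells. Mean Calcrl was 10.46 with Hlf and 4.67 without, against 13.01 in HEC, 5.22 in E12.5 cluster cells and 11.07 in HSC. Mean Fcgr3 was 5.94 with Hlf and 10.53 without, against 2.38 in HEC, 11.12 in E12.5 cluster cells and 2.38 in HSC.

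The levels in HEC and HSC differed from gene to gene. Plagl1 averaged 9.40 with Hlf, 13.04 in EC, 14.36 in HEC and 5.03 in HSC, and Cdh5 averaged 5.70 with Hlf, 10.61 in EC, 13.08 in HEC and 3.71 in HSC. Gimap8 averaged 7.60 with Hlf, 4.63 in EC, 4.32 in HEC and 8.61 in HSC. Mecom averaged 5.41 with Hlf, well below HEC (11.72) and HSC (10.18). Eid2 averaged 10.77 with Hlf but between 3.62 and 5.39 in the cells without and in the other populations.

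**Figure D5:**
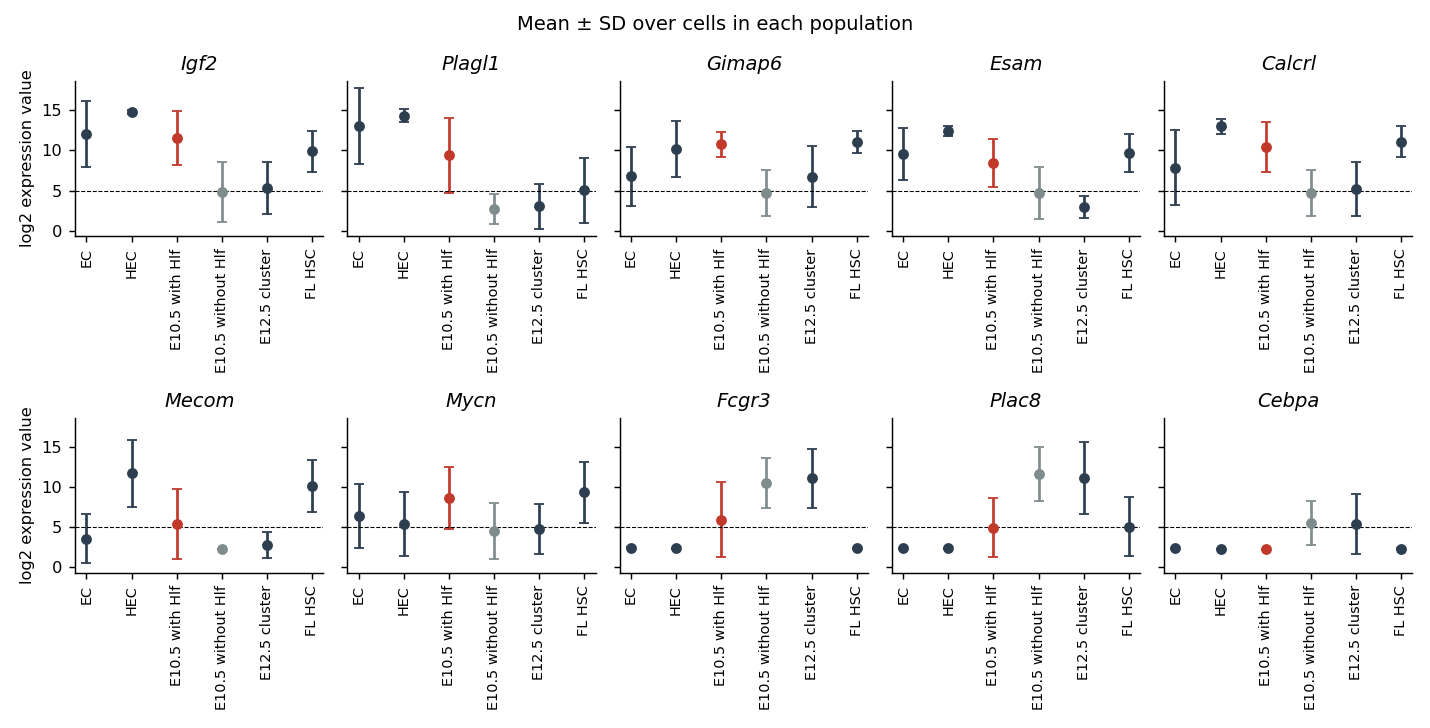
Mean log2 expression value (vertical axis) of 10 genes with SD over cells, in EC and HEC (n = 7 each), E10.5 cluster cells with Hlf (red, n = 8) and without (grey, n = 20), E12.5 cluster cells (n = 16) and fetal liver HSC (FL HSC, n = 26). For Calcrl the cells with Hlf (10.46) lie near fetal liver HSC (11.07) and the cells without (4.67) near E12.5 cluster cells (5.22).

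The same was counted over all called genes, using comparisons that hold no E10.5 cluster cell. Of the 332 genes higher with Hlf, 59 (17.8%) were higher in fetal liver HSC than in E12.5 cluster cells, against 2.29% of all measured genes. Of the 1075 genes lower with Hlf, 308 (28.7%) were lower there, against 17.7% of all. In HEC minus E12.5 cluster cells, 145 of the 332 (43.7%) were higher, against 11.7% of all, and 283 of the 1075 (26.3%) were lower, against 13.6% of all. Between HEC and HSC themselves, 122 of the 332 (36.7%) were higher in HEC, against 23% of all, and 31 (9.34%) were higher in HSC, against 5.89% of all. The 332 genes were above 5 in at least 50% of cells for 48.5% of them in HEC and 31.0% in HSC, against 45.4% and 37.7% of all measured genes. So fewer of them than of all genes were widely detected in HSC.

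The other populations were split by Hlf in the same way, and these splits share no cell with the one at E10.5. E12.5 cluster cells held only 2 cells with Hlf against 14 without. Of the 213 genes that were higher at E10.5 and measured there, 50.2% had a positive difference, against 38.3% of all genes measured there, and of 1024 that were lower at E10.5, 69.1% had a negative one, against 61.7%. In fetal liver HSC, 22 cells with Hlf were set against 4 without, and the shares were 46.2% positive (44.8% of all) and 56.2% negative (55.2% of all).

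Single genes varied across the splits. Gimap6 differed by 6.11 at E10.5, 6.68 at E12.5 and 0.22 in HSC, and Igf2 by 6.78, 6.20 and 1.00. Hoxa9 differed by 3.33, 9.92 and 5.01, so it was positive in every split. Mecom differed by 3.13, 3.30 and 6.38, but it passed the filter at E10.5 only through cells with Hlf, so its sign there adds no support. Calcrl differed by 5.80, 5.89 and -0.36. Cebpa (-3.22, -3.55 and 0.02) and Fcgr3 (-4.59, -6.77 and 0.04) were negative in the cluster cells of each day, and in HSC each averaged near the floor, at 2.34 and 2.38. Cebpa passed the filter at E10.5 only through cells without Hlf, so its sign there adds no support. The lists that lay highest at E10.5 did not do so throughout. In HSC the pan-endothelial list had 1 member higher and 12 lower of 19 measured (9.15% and 16.3% of all genes), with a median of -2.43, and the stem cell surface list 7 higher and 5 lower of 28, with a median of -0.25. At E12.5 the surface list had 5 higher and 2 lower of 17 (10.6% and 27.7% of all genes), with a median of 0.32, and the pan-endothelial list 3 higher and 1 lower of 9, with a median of 0.96. The stem cell transcription factors had medians of 1.69 at E12.5 and 2.08 in HSC. The myeloid list had 11 of 19 measured members lower at E12.5 (27.7% of all genes were), and 6 of 12 higher in HSC (9.15% of all). The G2 and mitosis list differed in direction in both other splits. At E12.5, 20 of 29 members were higher with Hlf (10.6% of all genes were). In HSC, 5 of 29 were higher and 0 lower (9.15% and 16.3% of all genes). The median there was 1.30, against -0.24 over all genes.

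Within the cells numbered 1 to 21, cells 11 and 17 with Hlf were set against 19 cells without, and the group numbered 22 to 28 held 1 cell without Hlf, too few for a value. In cells 1 to 21 the list medians were 1.38 for stem cell surface genes, 0.66 for stem cell transcription factors, 2.40 for pan-endothelial genes and -1.17 for myeloid genes. The differences were 3.31 for Igf2, 2.84 for Plagl1, 4.72 for Gimap6, 2.99 for Calcrl, 4.38 for Tek, 1.32 for Fgd5, 3.09 for Mecom, -5.10 for Plac8, -5.72 for Ramp1, -2.79 for Fcgr3 and -3.18 for Cebpa. Of these, Mecom passed the filter only through cells with Hlf, and Ramp1 and Cebpa only through cells without, so their signs add no support. Hoxa9 (-0.50), Cd34 (-0.14), Flt3 (-1.11) and Csf2rb (2.18) had the opposite sign there. Gata1 stood at -0.74, Bcl11a at 0.83 and Emilin2 at -0.88, all short of the size.

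Among cells with no Y-linked gene above 5, 7 with Hlf were set against 9 without. The list medians were 2.70 for stem cell surface genes, 1.18 for stem cell transcription factors, 2.40 for pan-endothelial genes and -1.94 for myeloid genes. Igf2 differed by 8.85, Plagl1 by 8.13, Gimap6 by 7.95, Mycn by 6.61, Plac8 by -8.73 and Pstpip2 by -8.33. Each of these gene differences was larger in size than the one over all 28 cells. The median of the stem cell transcription factors was smaller than over all cells (1.28), as was the erythroid median (-0.63 against -0.95). Over all measured genes the median was -0.80 here, against -0.48 over all 28 cells.

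Because Hlf and its relatives bind a known DNA element, the promoters of the called genes were searched for it. The letters searched were TTACGTAA, which is its own reverse complement, and TTATGTAA with its reverse complement TTACATAA, in the 250 bases before the start site given by RefSeq for build GRCm38.p6. Of the 332 genes higher with Hlf 257 had a promoter entry, and 5 of these (1.95%) held a match. The share was 3 of 901 (0.333%) among lower genes, 57 of 7597 (0.750%) among measured genes and 296 of 27025 (1.10%) among all promoters. The counts are small, and a match is no evidence of binding. The matches of the higher genes are shown with the flanking bases, 5′ to 3′ on the strand of the gene, with the element in capitals. Il1rl2 had 2 matches, at chr1:40324381-40324420 and chr1:40324429-40324468 (plus strand).
Il1rl2, first: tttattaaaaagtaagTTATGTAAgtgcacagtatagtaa
Il1rl2, second: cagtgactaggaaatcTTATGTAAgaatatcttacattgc
Ndn, chr7:62348142-62348181, plus strand: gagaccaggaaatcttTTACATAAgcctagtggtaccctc
Scmh1, chr4:120453214-120453243, plus strand: acttatccttatctctTTATGTAAaaatag
Txndc16, chr14:45219428-45219467, minus strand: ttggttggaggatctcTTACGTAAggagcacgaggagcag
Zscan26, chr13:21453826-21453865, minus strand: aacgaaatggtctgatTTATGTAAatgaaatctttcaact
The differences of these genes were 2.22 for Il1rl2, 2.42 for Ndn, 2.05 for Scmh1, 2.10 for Txndc16 and 3.03 for Zscan26. Ndn, described among the stem cell factors, was above 5 in 8 of 8 and 16 of 20 cells.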

How the data were processed

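The deposited values are log2 expression values of 45101 probe sets, and the submitters' processing notes name GCRMA and affy as the authors' tools. Their versions were not given in the sources used here. The method estimates background from probe sequence, so most values lie near a floor of about 2, and 5 served as the background threshold. The main values use the arrays as deposited, without further normalization. Precision is limited by how few cells there are.

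The platform's annotation gave 1 gene symbol to 34958 probe sets, several to 932 and left 9211 unlisted, and only the first were used. Symbols were checked through gene identifiers against RefSeq genes of GRCm38.p6. Each gene's value is that of the probe set whose mean over the 28 E10.5 cluster cells was highest. Fetal liver HSC arrays 20 and 21 correlated at 0.991 and were averaged, which left 26.

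Means, SDs and shares were computed with python 3.11.15, numpy 2.4.6, pandas 2.3.3 and scipy 1.17.1 (exact Clopper-Pearson 95% intervals), figures with matplotlib 3.10.9, and the calculation was tested on simulated data. Genes named were the 10 largest differences each way among genes above 5 in at least 50% of the cells of the higher side, without Hlf and the sorting-gate genes, the 5 largest differences in share each way, and members of 34 gene lists. The cells' split and the lists were chosen with earlier results of these data known. The alternatives were 12 other settings, other call sizes, leaving out each of 28 cells, and 3 settings chosen after seeing the data (cells numbered 1 to 21, cells with no Y-linked gene, and differences relative to the median gene).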

Additional observations from a re-analysis of the deposited data

Results flagged for a closer look

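In 9 of the 51 sets of values examined in the 8 cells with Hlf, a single cell stood apart from the rest by Dixon's criterion. Chance flags about 1 in 20 sets of normally spread values, but most genes here are either at the floor or high, so 1 high or 1 floor cell is enough, and the genes were named for their large differences. The number of sets is therefore not compared with that rate. Cell 11 accounted for 5 of them. It was the lowest for Igf2 (3.59), Calcrl (2.99) and Myct1 (3.01), against 10.97, 10.12 and 7.80 in the next lowest cells, and the highest for Ankrd44 (7.53) and Pstpip2 (9.12), against 2.44 and 2.53 in the next highest. Cell 25 had the highest mean over the lymphoid list (8.54, next 5.92) and the highest Pradc1 (8.33, next 2.40). Cell 28 was the highest for Itgal (8.25, next 4.71). Cell 24 was the highest for Ramp1 at 3.30, which is still under the background threshold.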

How the results depend on the processing

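The number of genes called higher (332 as reported) was 168 with the mean of each gene's probe sets, 518 with medians over cells, 130 with values under background set to 5, 1056 in cells numbered 1 to 21, 553 relative to the median of all genes, 1019 at a size of 1 log2 unit and 117 at a size of 3. The number called lower (1075) was 640 after quantile normalization, 549 with the mean of probe sets, 426 with values under background set to 5, 1869 in cells with no Y-linked gene, 614 relative to the median, 2979 at a size of 1 and 312 at a size of 3. Leaving out each cell in turn gave 310 to 430 higher and 964 to 1232 lower. The list medians that moved by more than the spread between cells were those of arterial genes (2.09 in cells 1 to 21), imprinted genes (0.23 with medians over cells, 2.81 in cells 1 to 21), ribosomal protein genes (0.44 relative to the median) and dissociation stress genes (-1.92 in cells 1 to 21). The share of genes higher at E10.5 that were positive in fetal liver HSC was 53.4% without HSC cells 5 and 7, against 43.5% of all genes. With those cells it was 46.2%, against 44.8%. Leaving them out sets 22 cells with Hlf against only 2 without, so the closeness to the background depends on very few cells. Of 104 genes called in a list or by rank 9 changed sign in some setting, namely Cd34 (-0.14), Cdc6 (1.80), Csf2rb (2.18), Flt3 (-1.11), Hoxa9 (-0.50), Nuf2 (1.86), Top2a (0.045) and Vav1 (1.39) in cells 1 to 21 and Kif20a (0.087) with medians over cells. Cells 1 to 21 leave 2 cells with Hlf, and the cause of the other changes was not tested. The settings with cells 1 to 21, with cells lacking a Y-linked gene and relative to the median were chosen after seeing the data. No paired analysis was possible because the comparison lies within 1 labelled group and comes from no test.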
